A study of Arabidopsis thaliana with 12 samples.

Results

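Of 3439 features on an Arabidopsis thaliana expression array, 18 were abundant, belonged to 1 gene each, and had similar levels in light-adapted plants and in plants recovering in light after darkness. A feature is a position on the array, and 692 of the features were annotated with exactly 1 gene. The 18 were chosen by their measured levels, as those among the 692 with a deposited intensity above 0 on all 12 arrays, a mean intensity over the 12 arrays of at least 0.5, a ratio of the recovery mean to the light-adapted mean between 0.67 and 1.5, and ranges of the 2 groups that overlapped after log2 and quantile normalization, which gives every array the same distribution of values. These steps left 258, 69, 24 and 21 features in turn. PSAN, PSBY, PSB27, AT1G74470 and LHB1B2 were left out by name, and 3 of them (PSAN, PSBY and AT1G74470) met the other criteria. Since the levels in both groups chose the features, the closeness of the groups is given below as a description, and nothing is read from how many of the 18 a comparison of the groups called.

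The samples were total RNA of wild-type plants of the Columbia 0 ecotype, 6 of them light adapted and 6 put back in light following 1 h in the dark. Light after darkness lasted 2 h by the titles and descriptions and 1 h by the source names, a disagreement that could not be resolved. All plants shared 1 genotype, and the labels give no organ, age, light intensity or pooling of plants. Nothing was sampled as darkness ended, so a level that dropped in the dark and came back could not be told apart from one that never moved.

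In darkness photosynthetic electron transport stops, and nuclear genes for chloroplast proteins are known to answer changes of light through photoreceptors, plastid redox signals and sugar supply. The functions among the 18 genes include an accessory electron transport complex, the assembly of photosynthetic complexes, RNA processing in organelles, general transcription and the hormone abscisic acid. Of the 18 genes, 3 have a symbol of their own in the reference table (NdhS, RAP74 and XERICO) and 15 are known there by locus alone. Where a role is given for one of these 15 it is general background knowledge, and 8 of them are named without a role.

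The summed intensity of an array ran from 2286 to 3314, and the 18 features held between 3.31% and 5.07% of it. Array medians were 0.0710 to 0.103 in the light-adapted group and 0.0358 to 0.0400 in the recovery group, and exact zeros made up 17.9% to 22.2% and 23.3% to 28.6% of the features. Totals were alike within arrays 1 and 2, within arrays 3 and 4 and within arrays 5 and 6, and arrays 3 and 4 had the highest totals in both groups. These pairs of arrays are named sets 1, 2 and 3 here, a division taken from the values and not from the labels, so it is not known whether the 6 arrays of a group stand for 6 samples or 3. The antenna gene LHB1B2 was bright, with a mean of 39.7 over the light-adapted arrays and of 24.3 over the recovery arrays, as were the photosystem II gene PSBW, at 17.8 and 65.6, and the photosystem I gene PSAN, at 6.55 and 6.85. Of the fixed markers, 0 of 3 for green tissue and 0 of 15 for other organs and cell types lay on a feature with 1 gene. In whole plants or organs, fewer cells of a type and less RNA per cell cannot be told apart. Levels of different features are not compared as transcript amounts, because each feature binds its own sequence.

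Among genes of the photosynthetic apparatus, NdhS had a lower mean in recovery on the deposited and the quantile-normalized scale and a higher one after median centring of the arrays, AT1G54500 varied widely within the light-adapted group, and AT3G47650 had nearly the same mean in both groups. NdhS encodes a subunit of the chloroplast NADH dehydrogenase-like complex, which takes electrons from ferredoxin and returns them to the plastoquinone pool in cyclic electron transport. The deposited intensity of NdhS had a lowest, median and highest value of 5.46, 6.55 and 9.93 on the light-adapted arrays and of 4.37, 5.64 and 7.47 on the recovery arrays. The highest values in both groups came from arrays 3 and 4, and recovery arrays 1, 5 and 6 lay below every light-adapted array. Its means were 7.24 ± 1.70 and 5.79 ± 1.31 (SD, n = 6 each), a ratio of 0.80. After quantile normalization the groups of NdhS no longer overlapped without light-adapted arrays 5 and 6, nor without recovery arrays 1 and 2.

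AT1G54500 encodes a rubredoxin-like protein, of a family of small iron proteins of which a thylakoid member is needed for photosystem II to accumulate. Its intensity was 0.315, 0.902 and 1.23 (lowest, median and highest) on the light-adapted arrays and 0.444, 0.571 and 0.941 on the recovery arrays. The recovery values fell inside the light-adapted range, whose bottom was set by array 6 alone. The means were 0.840 ± 0.335 and 0.650 ± 0.213 (SD, n = 6 each), a ratio of 0.774. The ratio was 0.630 without light-adapted arrays 5 and 6 and 0.615 without recovery arrays 3 and 4, outside the bounds used to choose the features. After quantile normalization the groups of AT1G54500 no longer overlapped without light-adapted arrays 5 and 6.

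AT3G47650 encodes a protein with a zinc finger of the DnaJ type, which acts as a chaperone in the assembly of Rubisco, the enzyme that fixes carbon dioxide. It had a lowest, median and highest intensity of 1.60, 1.77 and 1.98 on the light-adapted arrays and of 1.20, 1.62 and 2.42 on the recovery arrays. The light-adapted values all lay within the recovery range. With means of 1.78 ± 0.139 and 1.76 ± 0.548 (SD, n = 6 each) the ratio was 0.991, the closest to 1 among the 18, and its coefficient of variation (CV, the SD as a percentage of the mean) was 7.80% among light-adapted and 31.1% among recovery arrays. The wider recovery spread was one of deposited values, with set means of 1.62, 2.42 and 1.24 for sets 1, 2 and 3. Arrays 3 and 4 were high and arrays 5 and 6 low, as were the array totals. After quantile normalization the light-adapted SD was the larger, at 0.26 against 0.14 in recovery (log2 scale).

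**Figure D1:**
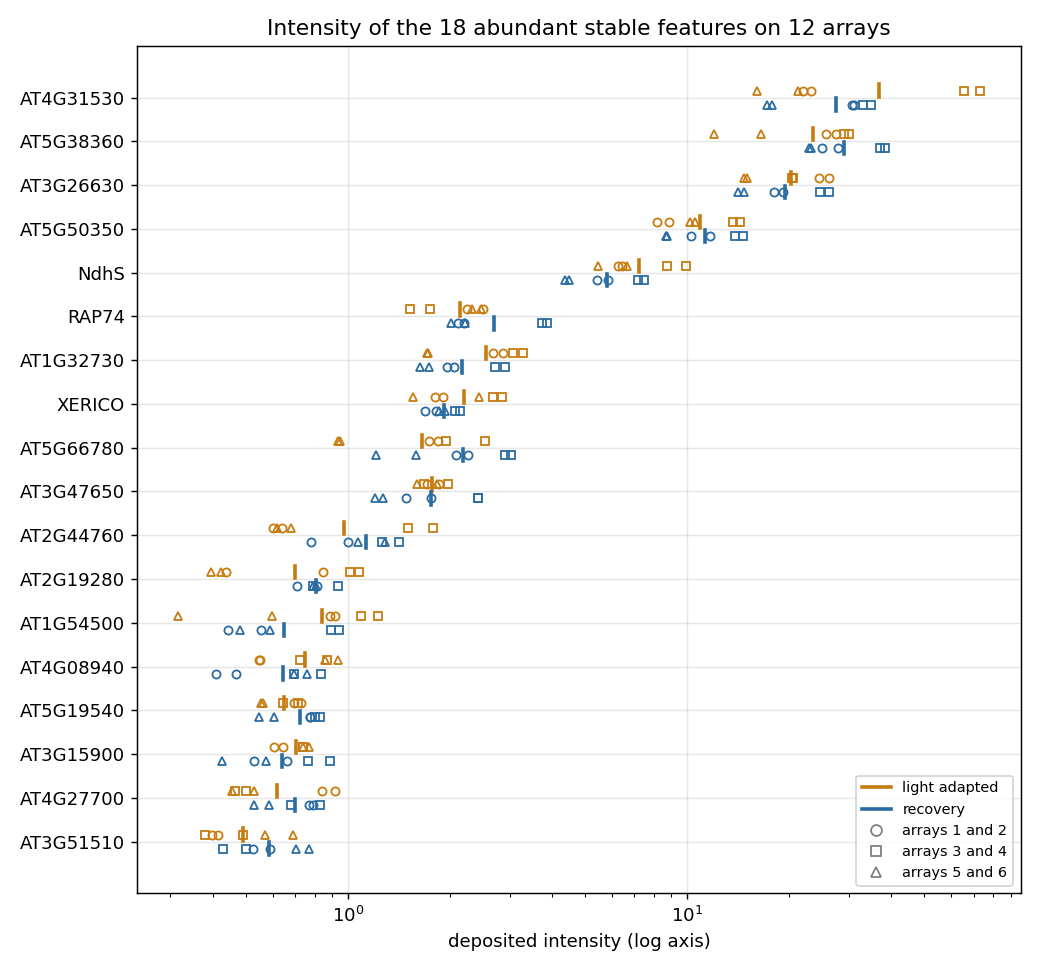
Deposited intensity (horizontal log axis) of each of the 18 features on 12 arrays, with light-adapted arrays in orange and recovery arrays in blue; the symbol gives the pair of arrays and the vertical bar the group mean. The groups overlap for every feature on these deposited values, although the choice of features required overlap only after quantile normalization. Squares (arrays 3 and 4) are often at the right, and for AT4G31530 the 2 light-adapted squares stand far from the rest of their group.

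Pentatricopeptide repeat proteins bind RNA in chloroplasts and mitochondria, where they take part in editing, splicing and stabilising transcripts, and the family gave 2 of the 18 genes. AT3G26630 was the third brightest of the features, with a lowest, median and highest intensity of 14.8, 20.4 and 26.3 on the light-adapted arrays and of 14.1, 18.6 and 26.2 on the recovery arrays. The deposited ranges nearly coincided, and the means of 20.2 ± 4.76 and 19.5 ± 4.99 (SD, n = 6 each) gave a ratio of 0.962. After quantile normalization AT3G26630 was lower in recovery, by -0.38 on the log2 scale. Its groups then no longer overlapped without light-adapted arrays 3 and 4. AT2G19280 had values of 0.395, 0.643 and 1.08 on the light-adapted arrays and of 0.707, 0.798 and 0.933 on the recovery arrays. All its recovery values fell inside the light-adapted range, and its CV was 45.4% among light-adapted and 9.01% among recovery arrays. The ratio of its means, 1.15, became 1.53 without light-adapted arrays 3 and 4.

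Of the genes of transcription and hormone biology, RAP74 encodes the large subunit of the general transcription factor TFIIF, which works with RNA polymerase II at most promoters. Its lowest, median and highest intensity was 1.53, 2.29 and 2.50 on the light-adapted arrays and 2.01, 2.21 and 3.86 on the recovery arrays. Arrays 3 and 4 were the lowest of the light-adapted group, with a set mean of 1.64, and the highest of the recovery group, with a set mean of 3.81. The other 4 arrays of each group lay between 2.01 and 2.50, and the means over 6 arrays were 2.14 ± 0.402 and 2.69 ± 0.867 (SD), a ratio of 1.26. Without recovery arrays 3 and 4 the ratio was 0.998.

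XERICO encodes a small RING-type zinc finger protein whose overexpression is known to raise the level of abscisic acid, the hormone of drought response. Intensities of XERICO were 1.56, 2.17 and 2.85 (lowest, median and highest) on the light-adapted arrays and 1.69, 1.90 and 2.15 on the recovery arrays. The recovery arrays lay within the light-adapted range. On deposited values they were close together, with a CV of 8.71%, the smallest of the 18 features in that group. After quantile normalization XERICO was not among the tightest features: its recovery SD was 0.23 (log2 scale), where the median over the 18 was 0.20. Its light-adapted SD was then 0.25. The means were 2.21 ± 0.521 and 1.92 ± 0.167 (SD, n = 6 each), a ratio of 0.871.

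Members of 3 enzyme families followed. AT4G31530 encodes a protein of the NAD(P)-binding Rossmann-fold superfamily and was the brightest of the 18, ranked between 10 and 26 among all 3439 features on every array. Its lowest, median and highest intensity was 16.04, 22.6 and 73.3 on the light-adapted arrays and 17.3, 30.9 and 34.8 on the recovery arrays. Light-adapted arrays 3 and 4 stood apart with a set mean of 69.4, against 22.6 in arrays 1 and 2 and 18.6 in arrays 5 and 6. The recovery set means were 30.9, 33.9 and 17.6. The ratio of the group means, 0.744, depended on several sets. It was 1.33 without light-adapted arrays 3 and 4, on the other side of 1. It fell below the bound of 0.67 without light-adapted arrays 1 and 2 (0.623), light-adapted arrays 5 and 6 (0.596) or recovery arrays 3 and 4 (0.657). With single arrays left out in turn it was 0.668 at the lowest.

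AT5G38360, which encodes a protein of the alpha/beta-hydrolase superfamily, had a lowest, median and highest intensity of 11.99, 26.6 and 30.1 on the light-adapted arrays and of 22.8, 26.4 and 38.4 on the recovery arrays. Light-adapted arrays 5 and 6 were the low ones, with a set mean of 14.2, and the other 4 lay within the recovery range. AT4G27700, which encodes a rhodanese-like protein, of a family that transfers sulfur, had values of 0.457, 0.515 and 0.916 on the light-adapted arrays and of 0.529, 0.727 and 0.826 on the recovery arrays. Its light-adapted arrays 1 and 2 were high, with a set mean of 0.878, and those of the other sets were at 0.483 and 0.492. The ratios of the group means were 1.24 for AT5G38360 and 1.13 for AT4G27700. After quantile normalization the groups of AT4G27700 no longer overlapped without light-adapted arrays 1 and 2.

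The 8 genes named by locus alone were AT5G50350, AT1G32730, AT5G66780, AT2G44760, AT4G08940, AT5G19540, AT3G15900 and AT3G51510, all annotated as protein coding. AT5G50350 was the brightest of them and the most even of the 18 after normalization, with a lowest, median and highest intensity of 8.14, 10.4 and 14.3 on the light-adapted arrays and of 8.67, 10.97 and 14.7 on the recovery arrays. Its deposited ranges nearly coincided, with means of 10.9 ± 2.51 and 11.3 ± 2.55 (SD, n = 6 each) and a ratio of 1.03. After quantile normalization AT5G50350 was lower in recovery, by -0.23 on the log2 scale against a pooled SD within groups of 0.12. Its groups then no longer overlapped without recovery arrays 1 and 2. AT1G32730 was at 1.71, 2.78 and 3.28 on the light-adapted arrays and at 1.63, 2.01 and 2.92 on the recovery arrays, overlapping over most of both ranges, with a ratio of 0.850.

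AT5G66780 had a lowest, median and highest value of 0.935, 1.79 and 2.54 on the light-adapted arrays and of 1.21, 2.18 and 3.02 on the recovery arrays. In both groups arrays 5 and 6 were the low ones, and the ratio of 1.31 was the highest of the 18. It became 1.59 without light-adapted arrays 3 and 4 and 1.55 without recovery arrays 5 and 6. After quantile normalization the groups of AT5G66780 no longer overlapped without recovery arrays 5 and 6. AT2G44760 was at 0.603, 0.661 and 1.79 on the light-adapted arrays and at 0.781, 1.16 and 1.41 on the recovery arrays. Light-adapted arrays 3 and 4 of AT2G44760 lay above the recovery range and the other 4 below it, so the overlap rested on that set, and the ratio of 1.17 became 1.79 without it.

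The remaining 4 of these loci were the dimmest of the 8, with means over the 12 arrays between 0.538 and 0.695. AT4G08940 had a lowest, median and highest intensity of 0.547, 0.789 and 0.936 on the light-adapted arrays and of 0.409, 0.695 and 0.836 on the recovery arrays, and arrays 1 and 2 were low in both groups. AT5G19540 was at 0.555, 0.6697 and 0.730 on the light-adapted arrays and at 0.549, 0.775 and 0.828 on the recovery arrays. These 2 genes had ratios of 0.861 and 1.11, and the deposited ranges overlapped over most of their length. After quantile normalization AT5G19540 was higher in recovery by 0.34 on the log2 scale. Its groups then no longer overlapped without light-adapted arrays 1 and 2. AT3G15900 was at 0.607, 0.738 and 0.768 on the light-adapted arrays, inside its recovery range of 0.426 to 0.884. AT3G51510 was at 0.381, 0.454 and 0.688 on the light-adapted arrays and at 0.427, 0.557 and 0.767 on the recovery arrays, with arrays 5 and 6 high in both groups. Of all 18 genes, 9 had a higher mean in recovery and 9 a lower one.

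At the edges of the rule, AT3G51510 was the dimmest feature taken, and AT2G39360 and AT1G24040, with means of 0.493 and 0.462 and ratios of 0.965 and 1.08, were the nearest features left out for their level. The smallest ratio taken was 0.744, and AT1G62150 at 0.640 and AT3G15140 at 0.614 were the nearest left out below. On the other side, AT4G29890 at 1.56 and AT1G51350 at 1.72 were the nearest left out above. AT5G53920, AT2G38550 and AT4G22830 had ratios of 0.681, 0.687 and 0.710, within the bounds, and were left out because all 6 recovery arrays lay below all 6 light-adapted arrays after quantile normalization. The same criteria were also met by 25 of the 870 features annotated with several genes and by 95 of the 1877 that are not named in the annotation, so the 18 are those that could be named and not all such features on the array.

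After quantile normalization, spread between arrays was wider among the light-adapted samples. On log2 values after quantile normalization, the SD within a group had a median over the 18 features of 0.41 in the light-adapted arrays (0.093 to 0.67) and of 0.20 in the recovery arrays (0.071 to 0.54). The light-adapted SD was the larger for 15 of the 18, or 83.3%. Over the 443 features above 0 on all arrays with a mean of at least 0.5, whatever their annotation, the medians were 0.36 and 0.23, and 73.6% had the larger SD in the light-adapted arrays. The wider light-adapted spread was thus shared by abundant features in general, and overlap of the groups, which the rule required, is easier to meet for a feature with a wide spread. On deposited intensities, which keep the differences between array totals, the spread of the 18 was nearly the same in the 2 groups. The median CV was 24.0% for light-adapted and 24.1% for recovery arrays. The median SD on the deposited log2 scale was 0.35 and 0.34 in that order.

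Among the genes with a known role, AT3G26630, RAP74 and AT5G38360 had the most unequal spread, with light-adapted SDs of 0.41, 0.59 and 0.41 and recovery SDs of 0.072, 0.12 and 0.095. AT1G32730 was alike, at 0.39 and 0.071. The exceptions with the larger SD in recovery were AT5G50350, at 0.093 and 0.15, AT4G08940, at 0.36 and 0.38, and AT3G51510, at 0.53 and 0.54. With the 2 groups pooled, AT5G50350 had an SD of 0.12, and 8 of the 443 abundant features had a smaller one. NdhS came next at 0.18, with 36 of the 443 below it, then AT3G15900 at 0.20 and AT3G47650 at 0.21. AT3G51510 at 0.54, AT4G27700 at 0.51 and AT1G54500 at 0.49 were the most variable, with 370, 363 and 356 of the 443 features below them. The lowest CV among the 443 was 0% in each group, so these placings also count features without any spread on deposited values.

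**Figure D2:**
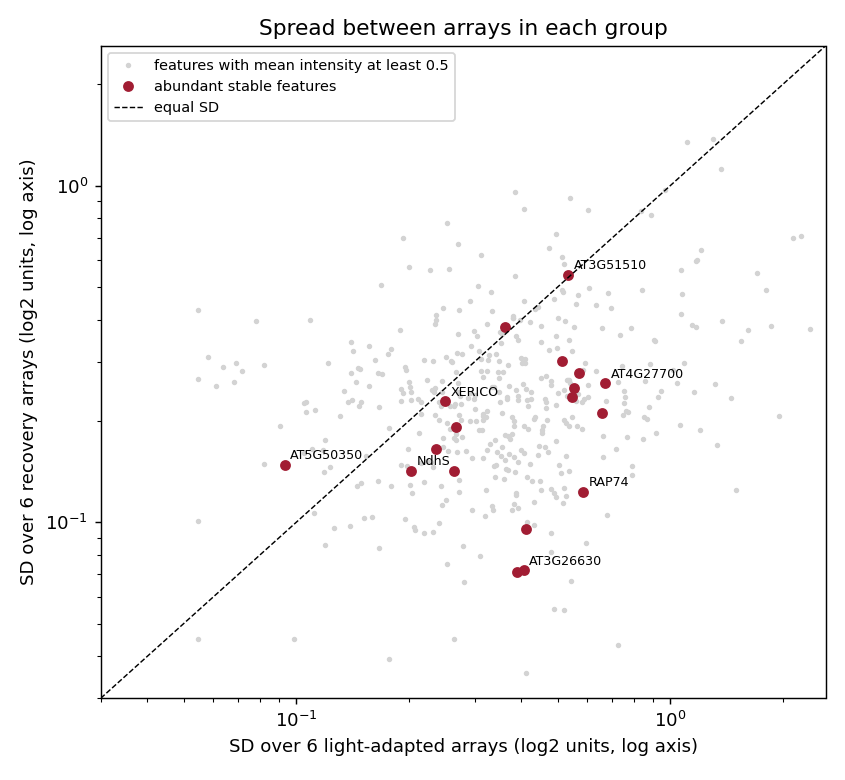
SD of log2 quantile-normalized values over the 6 light-adapted arrays (horizontal log axis) against that over the 6 recovery arrays (vertical log axis), for the 18 features in red and the 443 features with a mean intensity of at least 0.5 in grey. Points below the dashed line, 15 of the 18, have the larger SD in the light-adapted arrays; AT5G50350 lies at the low end and AT3G51510 at the high end.

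How the spread was laid out over the arrays was compared between replicate numbers, which the rule did not use, and between sets of arrays, on which the rule could depend. Between the 6 replicate numbers of the labels, with the group as a term, limma called 0 of 1429 features after adjustment (0% of those tested) and so 0 of the 18. At an unadjusted threshold of 0.05 it called 130 of the 1429 and 2 of the 18, AT3G51510 and AT4G08940, which both have a limma adjusted p of 0.515. Both had their highest normalized set mean in arrays 5 and 6 of each group. A level shared by same-numbered arrays of the 2 groups was thus not detectable for any of the 18 with 6 pairs.

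Between the 3 sets of arrays within a group, a comparison chosen after the data were seen, the light-adapted sets differed for 10 of the 18 features, where 30.1% of the 1429 features tested and 45.1% of the 443 abundant ones were called. The recovery sets differed for 0 of the 18, where 1.19% of the 1429 were called, but for 11 of the 18 with deposited values, which keep the array totals. These counts are not independent of the choice of features: for 10 of the 18 the groups no longer overlapped without some set, and 7 of these 10 were among the 10 called between light-adapted sets. They are given as a description, with p-values here only for features whose overlap rested on no single set. Those of AT4G31530 and AT2G44760 appear only among the flagged results below, where nothing is read from them. In this fit the 2 arrays of a set are the replicates, so its p-values measure only the spread between such arrays, which may be technical. Arrays of a set were alike: the median absolute difference within a set was 0.13 for light-adapted and 0.099 for recovery arrays on the log2 scale, and between set means it was 0.45 and 0.21.

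The called features included genes of several roles. RAP74 had light-adapted set means of 1.51, 0.36 and 1.45 for sets 1, 2 and 3 (log2 scale, limma adjusted p = 0.00298), so arrays 3 and 4 were low. AT4G27700 had means of -0.058, -1.53 and -0.96, with arrays 1 and 2 high. For AT3G26630 they were 4.95, 4.07 and 4.35, again with arrays 1 and 2 high, and for AT4G31530 4.76, 5.83 and 4.86, with arrays 3 and 4 high. No one set was high throughout: after normalization set 1 was the highest of the light-adapted sets for 10 of the 18, set 2 for 4 and set 3 for 4. The other calls were AT3G51510 (limma adjusted p = 0.0160), AT4G08940 (limma adjusted p = 0.0334), AT5G66780, AT1G32730, AT2G44760 and AT5G19540. Under 3 scalings of the values (deposited, quantile normalized and median centred), 7 of the 10 were called each time, and AT1G32730, AT5G19540 and AT3G51510 were not. XERICO, AT3G47650 and AT3G15900 were called under none of the 3.

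The set differences themselves differed between the groups for 3 of the 18 features, where 8.47% of the 1429 and 13.5% of the 443 abundant ones were called. For RAP74 (limma adjusted p = 0.0185) arrays 3 and 4 were low in the light-adapted group and, with a set mean of 1.44 against 1.18 and 1.33, slightly high in recovery. For AT4G31530, whose overlap rested on recovery arrays 1 and 2, arrays 3 and 4 were high in the light-adapted group and, at 4.30 against 4.88 and 4.43, low in recovery. AT2G44760, whose overlap rested on light-adapted arrays 3 and 4, had light-adapted set means of -0.62, 0.38 and -0.55 and recovery set means of 0.021, 0.11 and 0.58, and it was called neither with deposited values nor after median centring.

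**Figure D3:**
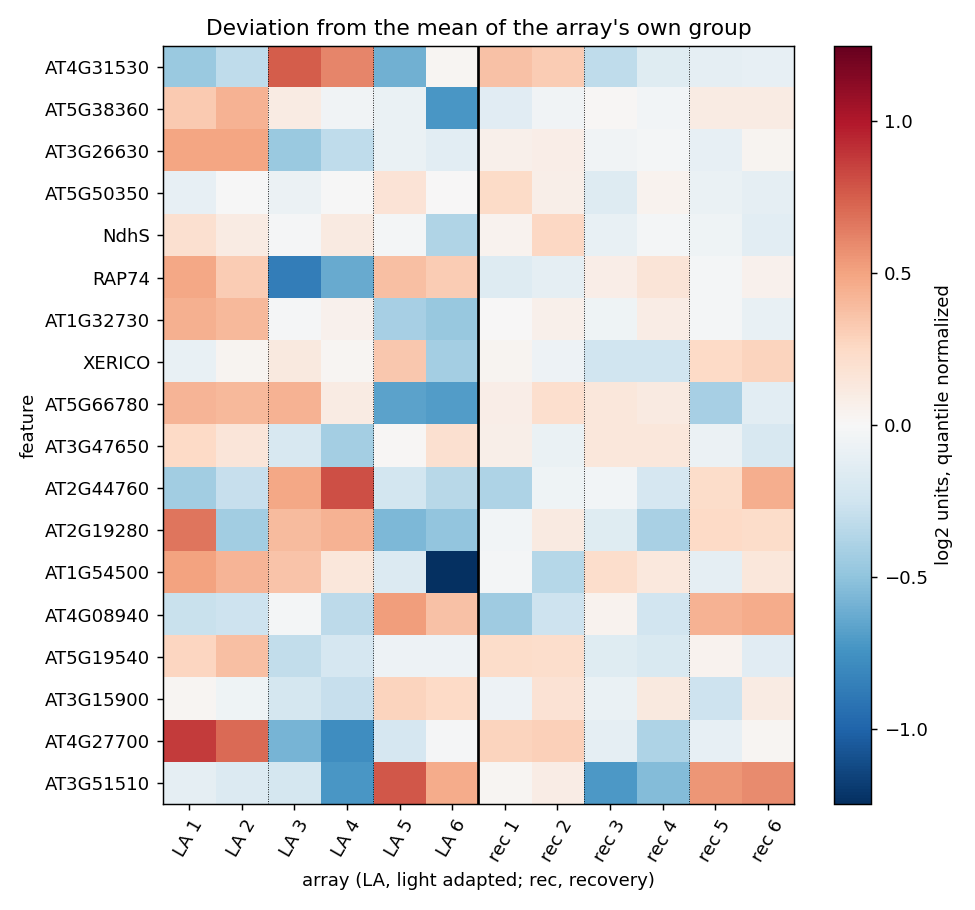
Deviation of each array from the mean of its own group, in log2 units after quantile normalization (colour), for the 18 features (rows) on the 6 light-adapted and 6 recovery arrays (columns); dotted lines part the sets. Light-adapted columns are more deeply coloured than recovery columns, neighbouring arrays of a set share their colour in most rows, and RAP74 and AT4G31530 show opposite colours at arrays 3 and 4.

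Whether the 18 features count as level between the groups depended on the scaling. Over all 2364 features tested, the median difference, recovery minus light adapted, was -0.82 on the deposited log2 scale, -0.038 after quantile normalization and 0.19 after median centring, in which each array's median log2 intensity is set to 0. For the 18 features the median difference was -0.0067, -0.011 and 0.99 in that order. The 443 abundant features had medians of -0.093, -0.046 and 0.90. Relative to the median of all features, the 18 therefore lay higher in recovery after median centring and on the deposited scale, and near it after quantile normalization.

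After median centring all 18 differences were positive, from 0.68 for NdhS to 1.42 for AT5G66780, and limma called 16 of the 18 higher, where 41% of the 2364 features were called in either direction and 27.3% higher. The groups overlapped for 4 of the 18 (AT4G31530, AT1G54500, AT4G08940 and AT3G51510). The other 14, among them RAP74, XERICO, AT3G26630 and AT3G47650, no longer overlapped, where the groups did not overlap for 39.3% of the 1429 features above 0 on all arrays and for 64.6% of the 443 abundant ones. After quantile normalization the differences ran from -0.61 to 0.56, with 9 above and 9 below 0, and all 18 overlapped, as the rule asked, where the groups did not overlap for 33.7% of the 1429. On the deposited scale the differences ran from -0.32 to 0.42, and 0 of the 18 were called, where 46.4% of the 2364 were called in either direction and 9.56% higher. In the limma comparison of the groups after quantile normalization, 36.9% of the 2364 features were called, and 1 of the 18, NdhS, at -0.61 ± 0.17 (SE). The rule used the levels behind all of these comparisons of the groups, so nothing is read from the members' counts in them.

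**Figure D4:**
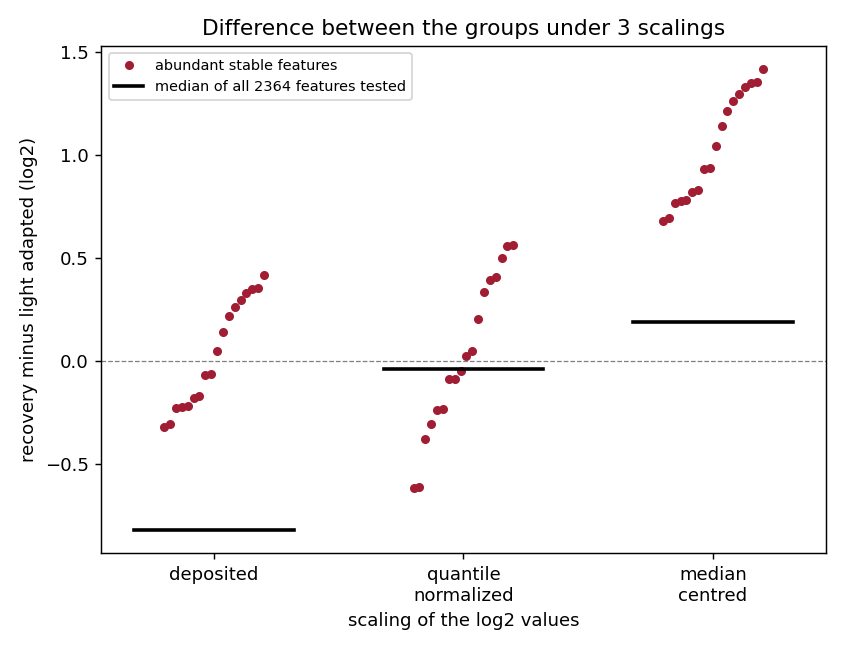
Difference between the groups (recovery minus light adapted, log2, vertical axis) of the 18 features, as red points, under 3 scalings of the arrays, with the median of all 2364 features tested as a black bar. The points straddle 0 on the deposited and the quantile-normalized scale and lie between 0.68 and 1.42 after median centring.

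By rank within an array, which no scaling changes, the groups differed little for some bright features and more for others. AT5G38360 had a median rank among 3439 features of 22.0 on the light-adapted and 21.5 on the recovery arrays, RAP74 of 128.5 in both groups, and AT3G47650 of 173.5 and 174.5. AT4G31530 went from 18.5 to 24.5, AT5G66780 from 178.5 to 139.5 and NdhS from 58.5 to 74.0, the last with ranks from 54 to 82 over all 12 arrays. Ranks of some dimmer features moved further, AT3G51510 from a median of 588.5 to 365.0 and AT2G44760 from 367.0 to 227.0, while AT1G54500 went the other way, from 315.5 to 348.0.

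Of the 21 features that met the criteria, 3 (PSAN, PSBY and AT1G74470) belonged to the 10 fixed lists of photosynthesis, tetrapyrrole, redox, plastid ribosome, plastid protein and assimilation genes, and these were left out by name, so the 18 hold 0 genes of those lists. They also hold 0 of the common reference genes for transcript measurements. Of 171 loci in the 10 lists, 14 were tested on features with 1 gene, and 4 were higher in recovery, 3 lower and 7 not called, where 438 of all 2364 features were higher and 435 lower. Their differences after quantile normalization reached from -3.42 ± 0.30 (SE, limma adjusted p = 4.69e-06) for AT5G65220, a plastid ribosomal protein gene, to 1.95 ± 0.26 (SE, limma adjusted p = 0.000104) for NTRC, the chloroplast NADPH-dependent thioredoxin reductase. Of 28 common reference genes 1 could be tested, AT2G28390, a SAND-family gene often used to normalize transcript measurements. Its mean was low, 0.206 over the light-adapted and 0.0305 over the recovery arrays, and its difference of -1.50 ± 0.60 (SE, limma adjusted p = 0.0708) did not pass the threshold.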

How the data were processed

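The values are the intensities the authors deposited, 1 table of 3439 features by 12 samples, from 0 to a ceiling of 100, read as linear since none is below 0 and some are exactly 0. No source used here gives the scanner, background correction or normalization, and scale and centring are unknown; with 1 channel there was no direction of a ratio to settle. Gene names came from the supplied platform annotation, updated through gene identifiers to a TAIR10.1 table (690 of 692 features with 1 gene matched). No coordinates or sequences are given, since no sequence table was used here.

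Intensities were taken to log2 with zeros missing, quantile normalized over all measured values, and filtered to at least 4 values above 0 in each group (2364 features). Because array medians differed by more than 10%, this was preferred to the deposited log2 scale. Tests used limma 3.58.1 in R 4.3.3 (functions lmFit and eBayes), adjusted by Benjamini-Hochberg over all features fitted, two-sided for the groups and moderated F for numbers and sets (1429 features above 0 on all arrays), at an adjusted p under 0.05, and were checked on simulated data. The labels do not say whether replicates are separate plants, so p-values describe only how these samples spread, possibly for technical reasons. The number of arrays limits the precision. All 18 features are named, by the rule that up to 40 would be; genes nearest each threshold and list genes were named too. The features, lists and tests were chosen with earlier results of these data known. Figures used matplotlib 3.10.9 under Python 3.11.15.

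Same-numbered arrays of the groups deviated together from their group means, with r between 0.108 and 0.193 for the 6 numbers over 1429 features, and each light-adapted array correlated best with the recovery array of its own number. On this evidence from the values the numbers may be pairs. The main comparison of the groups did not use them, so its SEs and adjusted p-values are those of an unpaired fit. The fit with the replicate number as a block is given in the last section.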

Additional observations from a re-analysis of the deposited data

Results flagged for a closer look

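RAP74, AT4G31530 and AT2G44760 were flagged because their set differences were called as unlike between the groups (limma adjusted p = 0.0185, 0.0344 and 0.0412 for the difference itself). For RAP74 the call held under all 3 scalings. The overlap that put AT4G31530 and AT2G44760 among the 18 rested on 1 set of arrays each. Their differences between sets are therefore not independent of the choice of features. The p-values of AT4G31530 and AT2G44760 are printed only to show why they were flagged, and nothing is read from them. None of the 36 groups of 6 arrays checked, 2 for each of the 18 features, held an array that stood apart from the other 5 by Dixon's test on deposited intensities. This test looks for 1 array and passes over a pair of like arrays, such as light-adapted arrays 3 and 4 of AT4G31530, at 73.3 and 65.6 against a highest value of 23.3 in the others.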

How the results depend on the processing

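With a minimum mean intensity of 0.25 in place of 0.5 the rule took 30 features, with 1 it took 11, and with overlap judged after median centring 6, of which 4 were among the 18. Leaving out single arrays gave 17 to 19 features, and leaving out a set 15 to 17 (added once the data had been examined). The ratio of group means stayed within 0.67 to 1.5 for 13 of the 18 whichever set was left out. The median SD of the recovery arrays was 0.34 on the deposited log2 scale, which keeps the array totals. The SD ranged over 0.35 to 0.45 (light adapted) and 0.17 to 0.21 (recovery) without single arrays. The median difference of the 18 was 0.99 after median centring and ran from -0.053 to 0.045 without single arrays. Differences moved by more than the spread between arrays for 18 of 18 features after median centring, where 9 turned from negative to positive, NdhS, the one called, to 0.68, and for 5 on the deposited scale. Features that differed between replicate numbers numbered 2 with deposited values and 1 with median centring. Those that differed between recovery sets numbered 305 with deposited values, 11 of the 18 among them, and 65 with median centring. Between the groups 873 features were called, 438 higher and 435 lower; with the replicate number as a block there were 832, and the call of NdhS held. Leaving out single arrays gave 781 to 858, and 3 set means against 3 gave 424 of 2171, with the call of NdhS lost. The rule used this contrast between the groups, so nothing is read from whether NdhS was called. The split was 226 higher and 870 lower with deposited values and 646 and 323 with median centring.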
